A study of Mus musculus with 7 samples.

Results

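The 45 genes described here form the interferon pathway of the macrophage and were chosen by symbol from the 53379 rows of the deposited count table, each matching exactly 1 row. They comprise the receptors of type I and type II interferon, STAT and IRF transcription factors, nucleic acid sensors, antiviral effectors and interferon-induced GTPases. RNA was measured in macrophages sorted from tumours of MC38, a mouse colon carcinoma line, as cells positive for CD45, CD11b and F4/80. All mice were C57BL/6J, were fed a high-fat diet and were sampled on day 21 after implantation of the tumour. The groups were 4 Gpr65 wild-type and 3 Gpr65 knockout mice, with 1 library per mouse. Gpr65 encodes a receptor that senses extracellular protons. The sources used here do not give whether the knockout was confined to any cell type, nor the age of the mice.

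Type I interferons bind a receptor built from Ifnar1 and Ifnar2 and act through a complex of STAT proteins with Irf9, which binds the interferon-stimulated response element (ISRE). Interferon gamma, the type II interferon made mainly by T cells and NK cells, binds Ifngr1 and Ifngr2 and acts through STAT dimers at the gamma-activated site (GAS). Macrophages respond to both, with antiviral proteins, and with GTPases that attack the vacuoles of intracellular microbes. In tumours an interferon response of macrophages is known for chemokines and antigen presentation that engage T cells.

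The libraries held 22449772 to 30483733 counts each. The labels held in the targeted gene, since Gpr65 measured 65.2 to 112 CPM (gene counts relative to the TMM-scaled library total) in wild-type and 0.683 to 1.10 CPM in knockout mice (log2 fold change -6.62, SE 0.30, edgeR adjusted p = 8e-05). All 8 macrophage markers examined, among them Ptprc (CD45), Itgam (CD11b) and Adgre1 (F4/80), had counts in each library. Their summed level was 11410 to 17120 CPM in wild-type and 11500 to 20300 CPM in knockout mice. Most of that sum was Lyz2, at 7015 to 10690 CPM in wild-type and 6562 to 12600 CPM in knockout mice. Knockout 1 stood apart: 940 of the 16234 tested genes had no count there, and 51 to 281 in each remaining library. These are bulk samples of sorted cells, so fewer cells of a type and less RNA per cell cannot be told apart.

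Of the 45 members 44 passed the filter on low counts, and 43 of these 44 had a positive log2 fold change, knockout minus wild-type, where 49.7% of all tested genes did. No member passed the threshold, an edgeR adjusted p under 0.05, which 0.0370% of all genes did (6 of 16234, with 0.0246% called higher and 0.0123% called lower in knockout mice). The members' median log2 fold change was 0.41, beside -0.0016 for all tested genes. At an unadjusted p under 0.05 stood 8 members, all on the knockout side (18.2% of members, against 2.57% of all genes higher and 2.79% lower at that p). In 4 members the knockout mice were all above the wild-type mice (9.09%, against 2.80% of all genes), and in 0 members all below (3.33% of all genes). DESeq2, the other tool run, called 131 genes and 1 member, Xaf1 (DESeq2 adjusted p = 0.032, against edgeR adjusted p of 0.178 to 1 for Xaf1 over the other alternatives). The members had been chosen with earlier results of these data known, so these shares are given as a description and not as a test of the list.

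**Figure D1:**
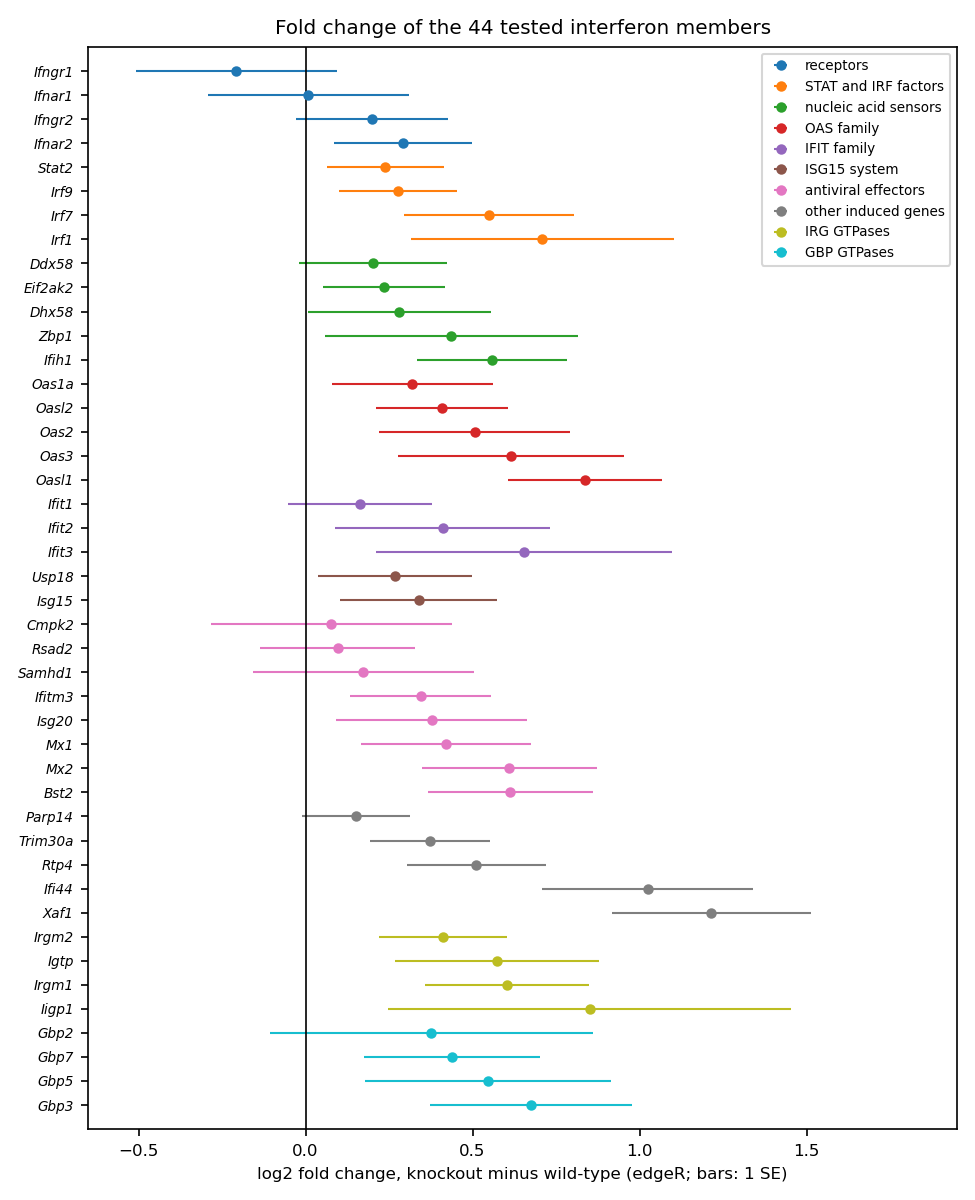
Log2 fold change of each tested member, knockout minus wild-type, on the x axis, with bars of 1 SE from the edgeR fit and colours for the members' roles. Only Ifngr1 lies below 0, at -0.21, and Xaf1 is farthest to the right at 1.21.

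One mouse carried much of this. Knockout 2 was the highest of all 7 libraries for 36 of 44 members, as it was for 17.7% of all tested genes, and it lay above all 4 wild-type mice for 41 members (93.2%), where 23.8% of all tested genes did so. Knockout 1 lay above the wild-type range for 14 members and knockout 3 for 13 (31.8% and 29.5%), beside 25.4% and 21.0% of all genes. Its height was not limited to the interferon genes. Knockout 2 was also the highest library for 7 of the 8 macrophage markers, all but Itgam, and held their top sum of 20300 CPM, against 11500 and 12500 CPM in knockouts 1 and 3. It had the lowest scaling factor as well, 0.807 against 0.940 to 1.116 in the other libraries. The part of these in the members' differences was not tested. On the log2 CPM scale the median member stood 0.78 above its wild-type mean in knockout 2, 0.16 above in knockout 1 and 0.20 above in knockout 3. Wild-type mice spanned -0.09 to 0.13 on the same measure. Without knockout 2, 32 of 44 members were positive and the median was 0.19, with 48.2% of all genes positive. Without knockout 1 the numbers were 44 of 44 and 0.47, and without knockout 3 they were 42 of 44 and 0.51. Members at an unadjusted p under 0.05 on the knockout side numbered 2 without knockout 2, 18 without knockout 1 and 13 without knockout 3, with 1.77%, 4.91% and 2.25% of all genes at that p in the same fits. Without wild-type 1, 2 or 4 they numbered 5, 5 and 3, with 1.90%, 2.31% and 1.53% of all genes.

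**Figure D2:**
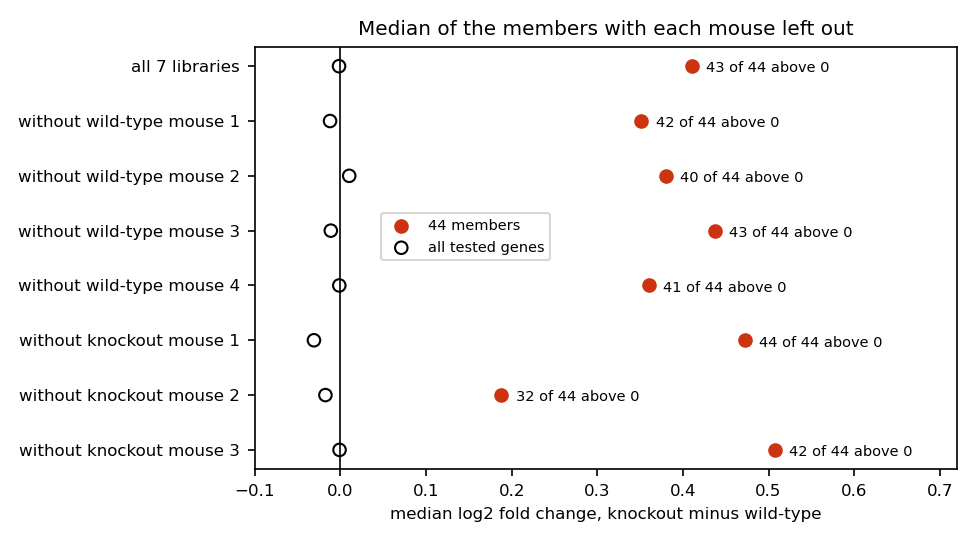
Median log2 fold change of the 44 members (filled) and of all tested genes (open) on the x axis, with all 7 libraries and with each mouse left out in turn, and the number of members above 0 beside each point. The members' median is 0.19 without knockout 2 and between 0.35 and 0.51 in the other 6 fits with a mouse left out.

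To show what the genes share in sequence, the RefSeq promoter windows (build GRCm38.p6, 250 bases before to 50 bases after the start) were searched on both strands for the core letters of the ISRE, GAAA and GAAA with any 2 bases between them, and for those of the GAS, TTC and GAA with any 3 bases between them. RefSeq windows were found for 36 of the 45 members. The ISRE letters stood in a window of 20 of these 36 genes, and in 48.8% of their 43 windows, against 3.44% of all 32851 promoter windows of that length. GAS letters stood in a window of 14 of the 36 genes, and in 32.6% of the windows, against 8.30% of all. All 4 guanylate-binding protein genes and 3 of 4 immunity-related GTPase genes with a window held the ISRE letters. None of the 4 receptor genes did. Xaf1 and Ifi44, the members with the largest fold changes, and Irf7 had neither match, which says only that these letters are not in the windows searched. The 6 named members with at least 2 ISRE matches before the start are shown as the 160 bases before it, with ISRE and GAS matches in capitals, and overlapping matches run together. Igtp, Irgm2 and Irf1 are added as examples of gamma-responsive members that hold GAS letters. Gbp7, which holds 2 GAS matches and 1 ISRE match in the same stretch, is not shown.
Isg15 (chr4:156200819-156200978, minus strand): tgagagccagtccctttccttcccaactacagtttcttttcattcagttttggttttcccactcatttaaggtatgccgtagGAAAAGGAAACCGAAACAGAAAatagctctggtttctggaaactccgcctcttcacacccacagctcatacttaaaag
Ifit3 (chr19:34583369-34583528, plus strand): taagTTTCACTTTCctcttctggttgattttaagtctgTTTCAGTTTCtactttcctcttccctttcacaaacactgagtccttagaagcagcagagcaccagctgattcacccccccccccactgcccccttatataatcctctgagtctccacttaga
Oas1a (chr5:120907526-120907685, minus strand): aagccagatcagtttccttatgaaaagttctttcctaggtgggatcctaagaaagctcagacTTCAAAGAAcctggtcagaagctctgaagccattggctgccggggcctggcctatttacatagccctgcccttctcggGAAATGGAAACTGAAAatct
Bst2 (chr8:71537473-71537632, minus strand): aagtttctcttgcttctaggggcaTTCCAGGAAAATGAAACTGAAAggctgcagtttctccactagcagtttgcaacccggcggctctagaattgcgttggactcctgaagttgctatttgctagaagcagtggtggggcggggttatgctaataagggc
Irgm1 (chr11:48871421-48871580, minus strand): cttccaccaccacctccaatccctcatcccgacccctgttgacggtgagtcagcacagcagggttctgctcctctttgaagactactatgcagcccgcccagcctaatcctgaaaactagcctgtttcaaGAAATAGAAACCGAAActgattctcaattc
Gbp3 (chr3:142559884-142560043, plus strand): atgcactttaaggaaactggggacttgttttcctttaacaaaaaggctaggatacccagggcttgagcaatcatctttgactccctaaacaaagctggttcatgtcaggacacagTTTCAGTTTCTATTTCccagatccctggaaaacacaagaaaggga
Igtp (chr11:58199396-58199555, plus strand): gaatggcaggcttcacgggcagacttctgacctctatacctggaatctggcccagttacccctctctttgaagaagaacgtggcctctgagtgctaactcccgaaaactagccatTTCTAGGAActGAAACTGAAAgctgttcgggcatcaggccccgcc
Irgm2 (chr11:58214817-58214976, plus strand): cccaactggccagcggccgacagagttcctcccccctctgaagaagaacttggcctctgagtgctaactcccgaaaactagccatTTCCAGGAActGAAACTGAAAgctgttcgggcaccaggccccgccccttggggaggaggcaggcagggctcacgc
Irf1 (chr11:53769854-53770013, plus strand): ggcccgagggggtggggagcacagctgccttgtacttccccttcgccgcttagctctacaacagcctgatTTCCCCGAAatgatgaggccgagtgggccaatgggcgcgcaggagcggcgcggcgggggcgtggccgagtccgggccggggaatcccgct
Isg15 held 3 overlapping ISRE matches, the farthest starting 78 bases before the start. Over 60 bases that end with the ISRE, Igtp and Irgm2 were identical at 58 (96.7%), so the paired GAS and ISRE letters of these neighbours lie in near-identical sequence.

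Among the receptors, which set what a macrophage can sense, log2 fold changes ran from -0.21 to 0.29, around a median of 0.10, and 3 of 4 were positive. Ifngr1, the ligand-binding chain for interferon gamma, measured 351, 488, 357 and 283 CPM in wild-type mice 1 to 4 against 181, 414 and 367 CPM in knockout mice 1 to 3. The groups overlapped, with knockout 1 the lowest of all, and its log2 fold change came to -0.21 (SE 0.30, edgeR adjusted p = 1). Its partner chain Ifngr2 measured 257, 315, 269 and 222 CPM in wild-type and 227, 410 and 278 CPM in knockout mice, overlapping around means of 266 ± 38.4 (SD, n = 4) and 305 ± 94.4 CPM (SD, n = 3), with a log2 fold change of 0.20 (SE 0.23). Ifnar2, the type I receptor chain with the smallest p, measured 135, 106, 121 and 90.4 CPM in wild-type and 110, 174 and 133 CPM in knockout mice, with only knockout 2 above the wild-type range and a log2 fold change of 0.29 (SE 0.21). Ifnar1 was nearly level at 0.01 (SE 0.30), with 143 CPM in knockout 1 and 298 to 310 CPM in the other knockouts. Knockout 1 lay below each wild-type mouse in both Ifngr1 and Ifnar1.

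Irf7, the factor that amplifies type I interferon production, had the highest level per length of the 4 STAT and IRF factors (chromosome 7, 141262706 to 141266481, minus strand, GRCm38). It measured 507, 737, 679 and 613 CPM in wild-type mice against 734, 1316 and 733 CPM in knockout mice 1 to 3. Knockouts 1 and 3 lay just under the highest wild-type mouse and knockout 2 far above it. A log2 fold change of 0.55 (SE 0.25, edgeR adjusted p = 0.94) came to 0.21 without knockout 2. Irf1, which is strongly induced by interferon gamma, measured 130, 409, 254 and 333 CPM in wild-type and 263, 525 and 592 CPM in knockout mice. Here it was knockout 3 that was highest, and wild-type mice differed 3.14-fold among themselves (log2 fold change 0.71, SE 0.39, edgeR adjusted p = 0.997). Stat2 and Irf9, the partners of the ISRE-binding complex, had the smallest differences of the 4 factors, 0.24 (SE 0.18) and 0.28 (SE 0.18). All 4 factors were positive, at a median of 0.41.

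Sensors of viral RNA and other nucleic acids had 5 of 5 positive fold changes and a median of 0.28. Ifih1 (MDA5), which binds long double-stranded RNA, measured 61.2, 52.4, 75.5 and 56.0 CPM in wild-type mice against 68.7, 122 and 80.3 CPM in knockout mice. Knockout 1 fell inside the wild-type range and the other knockouts lay above it (log2 fold change 0.56, SE 0.22, unadjusted p = 0.035, edgeR adjusted p = 0.92). Zbp1, a sensor of Z-form nucleic acids that can trigger necroptosis, measured 163, 271, 233 and 211 CPM in wild-type and 131, 482 and 279 CPM in knockout mice. Its lowest and its highest library were both knockouts (log2 fold change 0.44, SE 0.38). Eif2ak2 (PKR), the kinase that halts translation on double-stranded RNA, measured 61.6, 48.3, 55.0 and 47.0 CPM in wild-type and 70.8, 66.9 and 49.1 CPM in knockout mice, so that knockouts 1 and 2 lay above the wild-type range (0.23, SE 0.18). Ddx58 (RIG-I) and its relative Dhx58 had 0.20 (SE 0.22) and 0.28 (SE 0.27).

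The oligoadenylate synthetase family, whose products activate RNase L, had 5 of 5 positive fold changes with a median of 0.51. Oasl1, a family member without synthetase activity that restrains Irf7 translation (chromosome 5, 114923240 to 114937915, plus strand), measured 71.9, 65.7, 92.4 and 71.5 CPM in wild-type mice against 113, 187 and 104 CPM in knockout mice. The knockouts all lay above the wild-type mice, in this family member only (log2 fold change 0.84, SE 0.23, unadjusted p = 0.0056, edgeR adjusted p = 0.73). Without knockout 2 the log2 fold change was 0.52. Oasl2 measured 238, 222, 281 and 217 CPM in wild-type and 273, 409 and 272 CPM in knockout mice, with slight overlap (0.41, SE 0.20). Oas1a, the family's highest level per length, measured 129, 149, 153 and 116 CPM in wild-type and 144, 243 and 125 CPM in knockout mice, of which only knockout 2 was outside the wild-type range (0.32, SE 0.24). The remaining synthetases Oas2 and Oas3 had 0.51 (SE 0.28) and 0.61 (SE 0.34). Reads of Oas1a are uncertain, as 57.6% of its transcripts' 50-base words also occur in Oas1g. The sum of both genes was 199 ± 24.0 CPM (SD, n = 4) and 245 ± 94.2 CPM (SD, n = 3).

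The IFIT proteins bind viral RNA ends, and their 3 members had positive fold changes with a median of 0.41. Ifit3 measured 211, 86.9, 205 and 101 CPM in wild-type mice against 152, 410 and 150 CPM in knockout mice. Apart from knockout 2 the knockouts lay in the middle of a wide wild-type range, and the log2 fold change of 0.65 (SE 0.44) was -0.002 without that mouse. Of its words 51.2% are shared with the neighbouring copy Ifit3b, and both copies together gave 97 to 250 CPM in wild-type and 173 to 489 CPM in knockout mice. Its relatives Ifit2 and Ifit1 had 0.41 (SE 0.32) and 0.16 (SE 0.22). Isg15, a ubiquitin-like protein attached to other proteins during the response, measured 94.9, 171, 122 and 142 CPM in wild-type and 181, 196 and 125 CPM in knockout mice (0.34, SE 0.24). Usp18, the protease that removes Isg15 and dampens the type I receptor, had 110 ± 12.5 and 133 ± 43.3 CPM (0.27, SE 0.23). Both lay above the wild-type range in knockouts 1 and 2, and Usp18 was lowest in knockout 3.

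**Figure D3:**
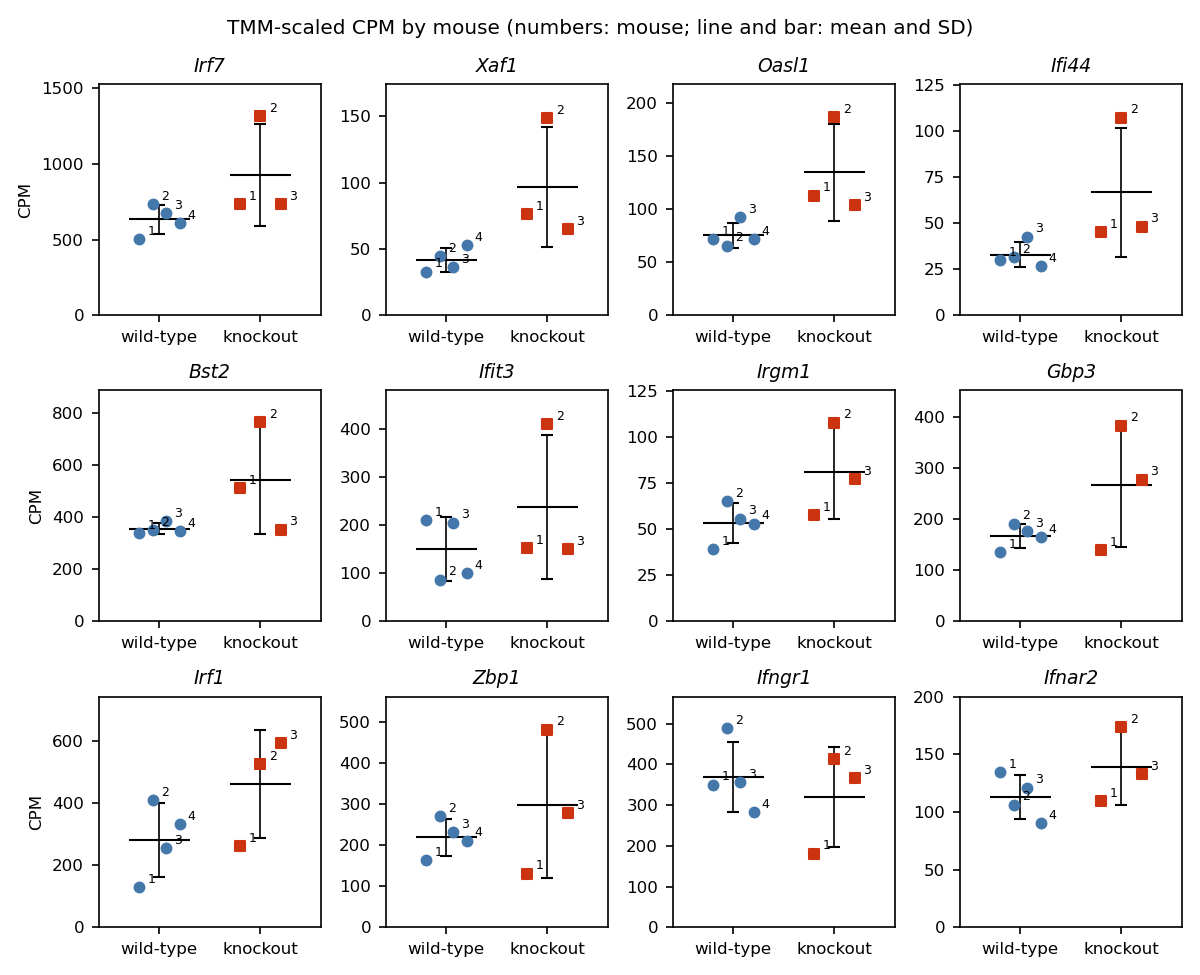
TMM-scaled CPM of 12 members on the y axis by genotype on the x axis, with each point 1 mouse and its number, a line at the mean and a bar of 1 SD. Xaf1, Oasl1 and Ifi44 have no overlap between the genotypes, and in 10 of the 12 panels, all but Irf1 and Ifngr1, knockout 2 is the highest point.

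Antiviral effectors had 8 of 8 positive fold changes and a median of 0.36. Bst2 (tetherin), which holds budding virions on the cell surface (chromosome 8, 71534255 to 71537456, minus strand), measured 341, 350, 387 and 349 CPM in wild-type mice, a tight range, against 514, 768 and 353 CPM in knockout mice. Knockout 3 was inside that range while the others were above it (log2 fold change 0.61, SE 0.25, unadjusted p = 0.036, edgeR adjusted p = 0.92). Ifitm3, which blocks virus fusion in endosomes and had the highest level per length of all members, measured 703, 762, 868 and 843 CPM in wild-type and 1140, 1164 and 720 CPM in knockout mice (0.34, SE 0.21). Mx2 measured 15.4, 14.5, 23.7 and 12.9 CPM in wild-type and 30.0, 27.2 and 19.0 CPM in knockout mice, with knockout 3 inside the wild-type range (0.61, SE 0.26, unadjusted p = 0.045). The Mx genes of most laboratory strains carry disrupting mutations, whereas their RNA is still induced by interferon. Rsad2 (viperin) and its neighbour Cmpk2 had the smallest differences, 0.10 (SE 0.23) and 0.08 (SE 0.36), and knockout 3 was the lowest library for Rsad2. The remaining effectors, Isg20, Mx1 and Samhd1, lay between 0.17 and 0.42.

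The largest fold changes came from induced genes with other roles, whose 5 members had a median of 0.51. Xaf1, a promoter of apoptosis (chromosome 11, 72301629 to 72313733, plus strand, GRCm38), measured 33.0, 44.6, 36.5 and 52.8 CPM in wild-type mice against 76.6, 149 and 65.3 CPM in knockout mice. There was no overlap, at a fitted 2.32-fold difference (log2 fold change 1.21, SE 0.30, unadjusted p = 0.0028, edgeR adjusted p = 0.66). Without knockout 2 the log2 fold change was 0.76 (edgeR adjusted p = 1). Ifi44 (chromosome 3, 151730922 to 151749960, minus strand) measured 30.1, 31.6, 42.7 and 26.9 CPM in wild-type and 45.2, 107 and 48.2 CPM in knockout mice. It did not overlap either, though knockouts 1 and 3 were close to wild-type 3 (1.02, SE 0.32, edgeR adjusted p = 0.78, and 0.50 without knockout 2). Rtp4, a chaperone of G-protein-coupled receptors, measured 165, 147, 145 and 127 CPM in wild-type and 210, 266 and 149 CPM in knockout mice (0.51, SE 0.21, unadjusted p = 0.036). Trim30a, which restrains Toll-like receptor signalling, was tight in wild-type mice at 137 ± 4.26 CPM (SD, n = 4) and lay above them in each knockout at 146 to 228 CPM (0.37, SE 0.18). Parp14 had 0.15 (SE 0.16).

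Immunity-related GTPases, which guard against intracellular microbes and respond strongly to interferon gamma, had a median of 0.59 over 4 tested members. Irgm1 (chromosome 11, 48861968 to 48871683, minus strand) measured 39.1, 65.4, 55.9 and 53.2 CPM in wild-type mice against 58.0, 108 and 77.3 CPM in knockout mice. Knockout 1 lay inside the wild-type range and the others above (log2 fold change 0.60, SE 0.25, unadjusted p = 0.037, edgeR adjusted p = 0.92). Igtp measured 90.0, 158, 137 and 144 CPM in wild-type and 111, 273 and 206 CPM in knockout mice (0.57, SE 0.30), while Irgm2 measured 60.2, 47.0, 46.7 and 50.6 CPM in wild-type and 58.6, 86.9 and 58.5 CPM in knockout mice (0.41, SE 0.19). The annotated exons of these neighbours overlap by 162 bases on the same strand and 11.8% of Igtp's words occur in Irgm2, so part of their reads cannot be assigned. Iigp1 varied most of all members, from 43.2 to 202 CPM among wild-type mice and from 56.4 to 309 CPM among knockouts (0.85, SE 0.60). Ifi47 had 0 counts in all 7 libraries, where 3 counts would give 0.0984 to 0.134 CPM. It shares 111 exon bases with Olfr56, which held 691 counts in all, and the part of that overlap in the 0 was not tested.

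Guanylate-binding proteins, which coat and break open microbe vacuoles, had 4 of 4 positive fold changes with a median of 0.49. Gbp3 (chromosome 3, 142560026 to 142573209, plus strand) measured 136, 191, 177 and 165 CPM in wild-type mice against 140, 384 and 278 CPM in knockout mice. The knockouts split, with knockout 1 near the lowest wild-type mouse and the others above all of them (log2 fold change 0.68, SE 0.30, edgeR adjusted p = 0.93). Gbp7 split likewise, with knockout 1 just under the lowest wild-type mouse, at 154, 232, 193 and 174 CPM in wild-type and 153, 318 and 294 CPM in knockout mice (0.44, SE 0.26). Gbp2, the family's highest level per length, measured 122, 428, 215 and 311 CPM in wild-type and 140, 485 and 421 CPM in knockout mice. Its wild-type range of 3.51-fold took in the lower 2 of the 3 knockouts (0.38, SE 0.48). Gbp5 had 0.54 (SE 0.37).

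The families therefore did not follow the same mice. Within wild-type mice the 8 IFIT and OAS genes were highest in mouse 3 (5 genes) or mouse 1 (3 genes) and lowest in mouse 2 (5 genes) or mouse 4 (3 genes). The 8 tested IRG and GBP genes were lowest in mouse 1 (7 of 8) and highest in mouse 2 (6 of 8). As a median over 8 genes against the wild-type mean, IFIT and OAS stood at 1.17, 0.752, 1.28 and 0.847 times in wild-type mice 1 to 4, and IRG and GBP at 0.728, 1.23, 1.05 and 1.06 times. Among knockouts 1 to 3 the IFIT and OAS medians were 1.13, 1.88 and 1.11 times and those of IRG and GBP 0.835, 2.03 and 1.63 times. Knockout 2 was thus high in both and knockout 3 more in the GTPases. The joined median hides a difference there, as in knockout 3 the 5 OAS genes alone stood at 1.38 times and the 3 IFIT genes at 1.07 times. These families were joined into pairs after their values were seen, so no test is given.

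**Figure D4:**
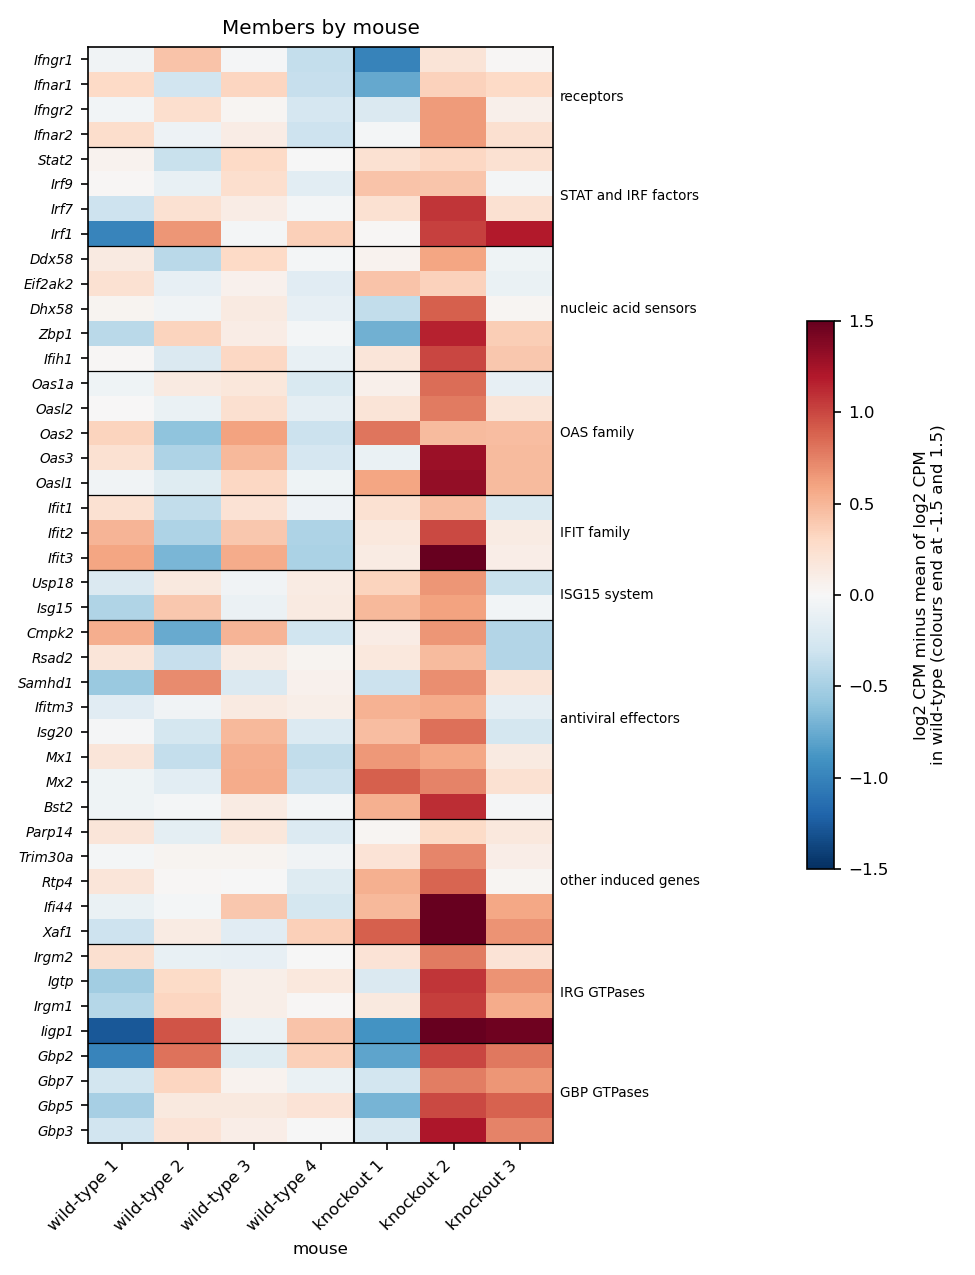
Heat map of the 44 tested members (rows, grouped by role) in the 7 mice (columns), as log2 CPM minus the wild-type mean of log2 CPM, red above and blue below. Knockout 2 is red in nearly all rows. Knockout 3 is red in Irf1 and the GTPases and also in other rows such as Xaf1, Ifi44 and Oasl1. Wild-type mice 1 and 2 have opposite colours in Irf1, Iigp1 and Gbp2.

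Ifng, the gamma ligand, measured 0.166, 9.92, 3.95 and 11.3 CPM in wild-type mice against 1.57, 1.59 and 29.9 CPM in knockout mice. It was lowest in wild-type 1, where the GTPases were low too, and highest in knockout 3, but low in knockout 2, where the GTPases were highest. The sort was for macrophages, yet 11 of 11 T cell markers were detected in each library but knockout 1, which had 2 at 0. Their summed level was 38.6, 104, 138 and 130 CPM in wild-type mice against 27.0, 78.6 and 562 CPM in knockout mice, and that of the 8 NK cell markers 33.4 to 138 and 38.5 to 433 CPM. Both sums, like Ifng, were highest in knockout 3. Of the plasmacytoid dendritic cell list, which shares Bst2 with the members, the other 7 markers summed to 87.2 to 130 CPM in wild-type and 137 to 158 CPM in knockout mice. Most of that sum was Tcf4 and Runx2, and the defining marker Siglech stayed between 0 and 2.56 CPM. The 10 neutrophil markers summed to 143 to 239 CPM in wild-type and 129 to 190 CPM in knockout mice, mostly from Csf3r and Mmp9. Ly6g was at 0 in all libraries, while Retnlg measured 0.874, 48.6, 2.82 and 10.6 CPM in wild-type mice and 0 to 0.551 CPM in knockout mice, without overlap. S100a8, S100a9, Mmp8 and Mmp9 had negative log2 fold changes, from -2.32 to -1.75, as did Cxcr2 at -1.03 (SE 1.56). Csf3r went the other way, at 0.75 (SE 0.335). Its mean was 75.2 CPM in wild-type and 127 CPM in knockout mice, with knockout 2 the highest. The list sums overlapped between the genotypes, and no marker of the list passed. The 6 dendritic cell markers summed to 32.5 to 217 CPM in wild-type and 48.0 to 78.5 CPM in knockout mice. Of these, Xcr1 (1.42, SE 0.32, edgeR adjusted p = 0.66) and Clec9a (0.99, SE 0.76) were higher in knockout mice without overlap. Flt3, Zbtb46, Ccr7 and Cd209a were negative. The 5 B cell markers summed to 8.44 to 20.8 and 9.635 to 41.5 CPM. The 7 tumour and epithelial markers, mostly Cdh1 (-1.51, SE 0.61), summed to 126 to 451 and 41.9 to 168 CPM. The part of Ifng and of these cells in the members' differences was not tested.

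**Figure D5:**
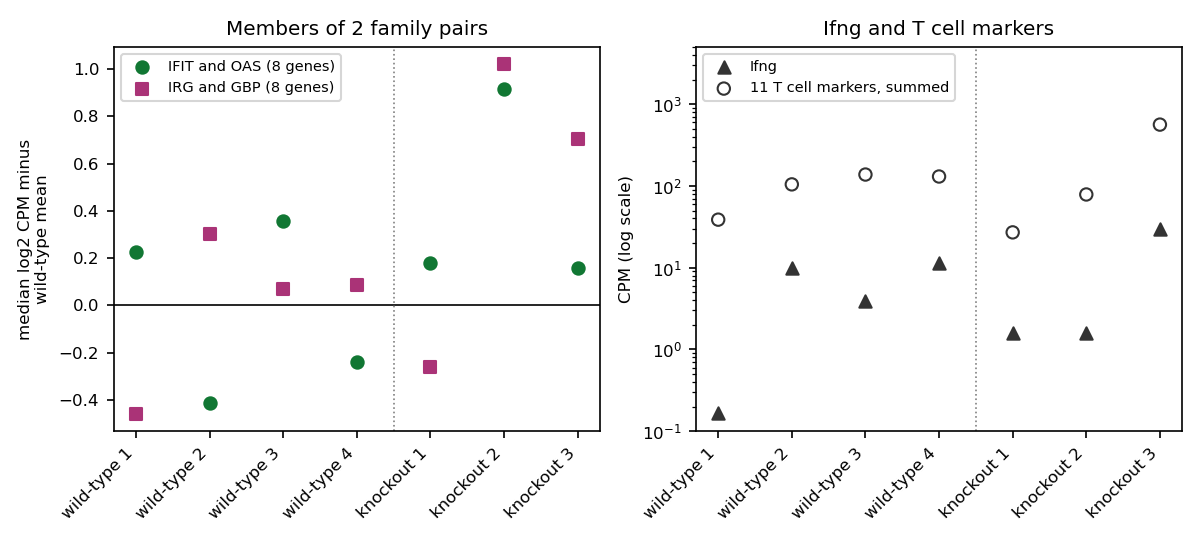
Left, median log2 CPM minus wild-type mean of the IFIT and OAS genes and of the IRG and GBP genes in each mouse. Right, CPM on a log axis of Ifng and of 11 summed T cell markers in the same mice; knockout 2 is highest on the left, whereas knockout 3 is highest on the right.

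The rest of the pathway was read from a wider list of 136 genes, of which 113 were tested. Positive fold changes were seen in 89 of the 113, with a median of 0.25, where 49.7% of all tested genes were positive. The threshold was passed by 3, which are among the 6 calls over all 16234 genes (0.0370%). These 3 lie in the same stretch of chromosome 11 and are described below. Of 20 interferon ligand genes only Ifng and Ifnb1 passed the filter and 13 had no count in any library. Ifnb1, an early type I interferon, stayed at 0 to 1.54 CPM in wild-type mice and measured 5.19, 0.448 and 1.07 CPM in knockout mice. It was highest in knockout 1, at 152 counts, while the IFIT genes were highest in knockout 2. The part of Ifnb1 in the members' differences was not tested. The JAK kinases and other STATs had 2 of 8 positive, with Stat3 at 0.09 (SE 0.22) and Jak2 at -0.56 (SE 0.33). Further IRF genes had 6 of 6 positive, led by Irf8 at 0.41 (SE 0.24). Sensing and adaptor genes had 13 of 17 positive. Among them Trim25, the ubiquitin ligase that activates RIG-I, measured 95.5 to 125 CPM in wild-type and 239, 160 and 181 CPM in knockout mice, without overlap (0.78, SE 0.18, unadjusted p = 0.0019, edgeR adjusted p = 0.66). Tlr8 had -0.21 (SE 0.20). Brakes on the pathway had 7 of 10 positive, with Socs3, the cytokine signalling inhibitor, at 645 to 818 CPM in wild-type and 752, 1627 and 1446 CPM in knockout mice (0.79, SE 0.26, edgeR adjusted p = 0.81). Ptpn2 had -0.21 (SE 0.25).

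Other induced genes had 59 of 70 positive, a median of 0.28 and the 3 genes past the threshold, all of the Schlafen family on chromosome 11. Slfn9 rose to 26.3, 34.6 and 22.4 CPM in knockout mice 1 to 3 from 0.582 to 1.46 CPM (log2 fold change 4.63, SE 0.34, edgeR adjusted p = 0.0016). In these genes knockouts 1 and 3 were raised along with knockout 2, unlike most members. Slfn5 rose from 7.02 to 13.2 CPM in wild-type to 52.8, 86.1 and 57.7 CPM in knockout mice (2.63, SE 0.27, edgeR adjusted p = 0.016). Slfn2 had 0 counts in each wild-type library and 22.7, 20.8 and 14.4 CPM in knockout mice (edgeR adjusted p = 0.0035). With the mouse number as a block, none of the 3 passed. Slfn3 and Slfn4, the other tested Schlafen genes, were not raised in all 3 knockouts. Slfn3 was at 0.09 (SE 0.77), with only 6 to 24 counts per library. Slfn4, at -0.59 (SE 0.68), measured 18.5 to 29.7 CPM in wild-type and 36.0, 4.64 and 4.37 CPM in knockout mice. Slfn1 and Slfn8 had 0 counts in all libraries. Slfn5, Slfn9, Slfn8 and Slfn2 lie in that order between 82951349 and 83070678 of chromosome 11. The reason for the 0 counts, among them those of Slfn2 in wild-type mice, was not tested. Without wild-type 1, wild-type 2 or knockout 3, 2 pathway genes off the member list passed, and without knockout 2 there was 1. On the lower side Ifitm1, a relative of Ifitm3, measured 67.8 to 144 CPM in wild-type and 47.2, 27.7 and 60.1 CPM in knockout mice (-1.15, SE 0.33, edgeR adjusted p = 0.75).

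Compared per kilobase of annotated exon, the members' mean levels ran from 1306 CPM per kb for Ifitm3 to 5.65 for Mx2. Bst2 followed at 484 CPM per kb, then Irf7 at 201, Isg15 at 195 and Ifngr1 at 122. Xaf1 and Ifi44, with the largest fold changes, were among the lower at 13.9 and 7.74 CPM per kb. The tested members had at least 354 and up to 33362 counts in a library. The SE of their log2 fold changes ran from 0.16 to 0.60, with a median of 0.25.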

How the data were processed

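The authors deposited raw read counts per gene, as whole numbers, for macrophages of 4 wild-type and 3 knockout mice, at 22449772 to 30483733 counts per library. Libraries came from polyA RNA by a Takara SMART-seq kit, per the labels' protocols. The build GRCm38 and the tools BWA 0.7.12, DESeq2 1.24.0, cutadapt 1.15 and FastQC 0.11.5 are named, per the submitters' processing notes, without role or order. The counting program and any use of strand were not given in the sources used here. Overlapping and antisense genes were therefore not told apart. Reads that match near-identical copies cannot be assigned to 1 gene, and the handling of such reads is not given either.

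Names, positions and exon lengths came from GENCODE M21 by Ensembl identifier (53274 of 53379 matched). All tests used edgeR 4.0.16 under R 4.3.3 with the quasi-likelihood F test, TMM scaling, robust estimation, the default low-count filter by group and Benjamini-Hochberg adjustment over 16234 genes at 0.05, with an intercept and the genotype. CPM are TMM-scaled, and a median over genes against the wild-type mean used log2 CPM with a prior count of 2. Each SE is the size of the fold change divided by the square root of F. The fit was checked on simulated counts. Alternatives were RLE size factors, library size only, no filter or a stricter one, DESeq2 1.42.0, non-robust edgeR, a block for the mouse number and each library left out. The members and lists were chosen with earlier results of these data known. Of each role group the text gives values for the members with the smallest p, the highest level per length and any negative fold change, and names the rest. Of the other pathway genes it names those past the threshold, the other listed Schlafen genes and, per list, the smallest p in each direction. Pairs of libraries differed far beyond sampling noise. The labels give 1 mouse per library, and each test weighs the genotype difference against the spread between libraries of the same genotype. That spread holds mouse, sorting and library preparation together.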

Additional observations from a re-analysis of the deposited data

Results flagged for a closer look

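The wild-type mice were screened in 48 sets of 4 values for a mouse lying far from its group, which chance gives in about 1 in 20 sets, and 1 set had one. It was the median of the 4 receptor genes, in which wild-type 4 was the lowest, with a gap to the nearest mouse of 0.901 of the whole range. That mouse stood at 0.797 times the wild-type mean, against 1.05 to 1.08 times in the other wild-type mice, and had the lowest level of the wild-type mice for all 4 receptor genes. A group of 3, such as the knockouts, was not screened.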

How the results depend on the processing

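The number of members past the threshold was 0 in the fits run other than DESeq2, which called 1, Xaf1. The members' median log2 fold change stayed positive, between 0.19 and 0.51, and positive members numbered 32 to 44, both lowest without knockout 2. With library size only, the median of all genes moved to -0.11, that of the members was 0.24, and 40 members were positive. Calls over all genes, 6 in the main comparison, numbered 11 with no filter, 131 by DESeq2, 1 with the mouse number as a replicate block and 3 to 14 with a library left out. Other pathway genes past the threshold, 3 in the main comparison, numbered 0 with the block and 1 to 4 with a library left out. With the block 41 members were positive and their median was 0.35. The numbers belong to different mice, so they were not taken to pair the mice. Across genes, deviations of same-numbered mice had r = 0.066, 0.051 and 0.088, and those of differently numbered mice -0.194 to 0.095. These r cannot settle whether the numbers pair the mice, as deviations from means of so few libraries depend on each other. With a library left out, the sign turned in 5 of the members given mouse by mouse. Ifngr1 ranged from -0.435 to 0.06 (positive without knockout 1). Negative without knockout 2 were Ifit3 (-0.002 to 0.90), Ifngr2 (-0.076 to 0.354), Oas1a (-0.029 to 0.504) and Zbp1 (-0.103 to 0.77). Without knockout 2 the sign also turned in Ifnar1, Ddx58, Dhx58, Ifit1, Rsad2, Cmpk2 and Samhd1, to between -0.243 and -0.008. In that fit 12 of the 44 members were negative. The cause was not tested. Gpr65 was called under each setting, at -6.78 to -6.46. With 3 and 4 mice, the SE of the members' log2 fold changes ran from 0.16 to 0.60, at 354 or more counts per library in each tested member. The parts of mouse, library preparation and read depth in that spread were not tested.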

Other observations

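One further interferon-induced gene, picked here after its values were seen, had a wider range than any member. Gbp2b, a guanylate-binding protein gene next to Gbp2 on chromosome 3 (142594847 to 142619179, GRCm38), measured 0.832, 39.6, 5.44 and 14.7 CPM in wild-type mice 1 to 4 and 1.57, 198 and 180 CPM in knockout mice 1 to 3. As in the GBP members, wild-type 1 was the lowest of the wild-type mice and knockout 2 the highest library. The groups overlapped and it did not pass (log2 fold change 3.06, SE 1.36, edgeR adjusted p = 0.93). Fam26f (Calhm6 in the annotation), an interferon-induced membrane protein also picked after its values were seen, measured 13.8 to 43.2 CPM in wild-type and 33.5, 140 and 70.6 CPM in knockout mice (1.37, SE 0.49, edgeR adjusted p = 0.84).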
